A study of Homo sapiens with 8 samples.

Results

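The genes described here are the BMP ligands BMP2 and BMP4, the ID genes ID1, ID2, ID3 and ID4, the SMAD genes SMAD6, SMAD7 and SMAD9, and BAMBI. They were chosen by gene symbol, 10 of the 60622 genes counted, with earlier results of these data in view, so their changes are a description of this experiment and not independent evidence. Of the 10 genes, 9 passed the filter on low counts and ID4 did not. Poly(A) RNA was sequenced from LNCaP and PC3, established human prostate cancer cell lines derived from a lymph node and a bone metastasis. Each line was measured with miR-375 overexpressed and as a control, with 2 libraries in each of the 4 groups. The 4 groups were LNCaP with miR-375 and LNCaP control, in medium with 10% serum, and PC3 with miR-375 and PC3 control, in medium with 20% serum. The method and duration of the overexpression, and the treatment of the control cells, are not stated in the labels. The labels also do not say that the paired libraries were grown apart, so a p-value here covers library-to-library spread that may be purely technical.

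BMPs are secreted ligands that bind paired type I and type II serine/threonine kinase receptors, and the activated receptors phosphorylate SMAD1, SMAD5 and the protein made from SMAD9. These SMADs join SMAD4, enter the nucleus and switch on target genes, of which the ID genes are the best known. ID proteins lack a DNA-binding region and hold basic helix-loop-helix factors away from DNA, while SMAD6, SMAD7 and BAMBI are induced as feedback inhibitors. In prostate cancer the family is studied for its part in bone metastasis.

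Library totals ran from 33973861 to 41890528 counts. All 6 marker genes of LNCaP were higher in LNCaP controls than in PC3 controls and none of the 6 markers of PC3 was, and the LNCaP marker KLK3 had 0 counts in PC3. Summed markers of leukocytes stayed between 0.115 and 0.805 CPM, a gene's count divided by the scaled library size. Summed fibroblast markers were 9.91 to 10.9 CPM in PC3 with miR-375 and 5.72 to 5.76 CPM in PC3 controls, and summed endothelial markers were 32.4 to 33.6 CPM and 45.9 to 46.1 CPM in the same groups. Nearly all of the endothelial sum in PC3 was PECAM1, at a mean of 32.3 CPM with miR-375 and 45.1 CPM in controls, while VWF, CDH5 and TEK were each under 1 CPM there. The summed PC3 markers were 1165 to 1185 CPM in PC3 with miR-375 and 2173 to 2175 CPM in PC3 controls, and the summed LNCaP markers were 3892 to 4001 CPM in LNCaP with miR-375 and 5108 to 5142 CPM in LNCaP controls. The part of these marker levels in the results was not tested. MIR375 itself had 0 counts in every library. That value checks nothing about the overexpression, since poly(A) selection does not capture a mature microRNA.

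With miR-375, 8 of the 9 tested genes were higher in PC3 and none was lower, whereas in LNCaP 1 was higher and 3 were lower. The LNCaP split depended on the scaling: it was 3 higher and 1 lower with library sizes from total counts, and 2 higher and 2 lower with upper-quartile scaling, while the PC3 split was 8 and 0 with both. The largest changes in PC3 were those of BMP2, ID3 and ID1, at 15.8-fold, 8.14-fold and 3.45-fold. A gene was called at an adjusted p under 0.05 under edgeR's quasi-likelihood model, adjusted by Benjamini-Hochberg across 21066 tested genes. Of all tested genes, 22.2% were called higher and 20.8% lower in PC3, and 13.9% were called higher and 18.7% lower in LNCaP. With total counts the LNCaP shares were 22.4% higher and 12.4% lower, and the PC3 shares 26.9% and 17.1%; with upper-quartile scaling the LNCaP shares were 20.1% and 13.7%. The median log2 fold change of the 9 genes was 0.94 in PC3, beside 0.02 over all tested genes, and -0.06 in LNCaP, beside 0.

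**Figure D1:**
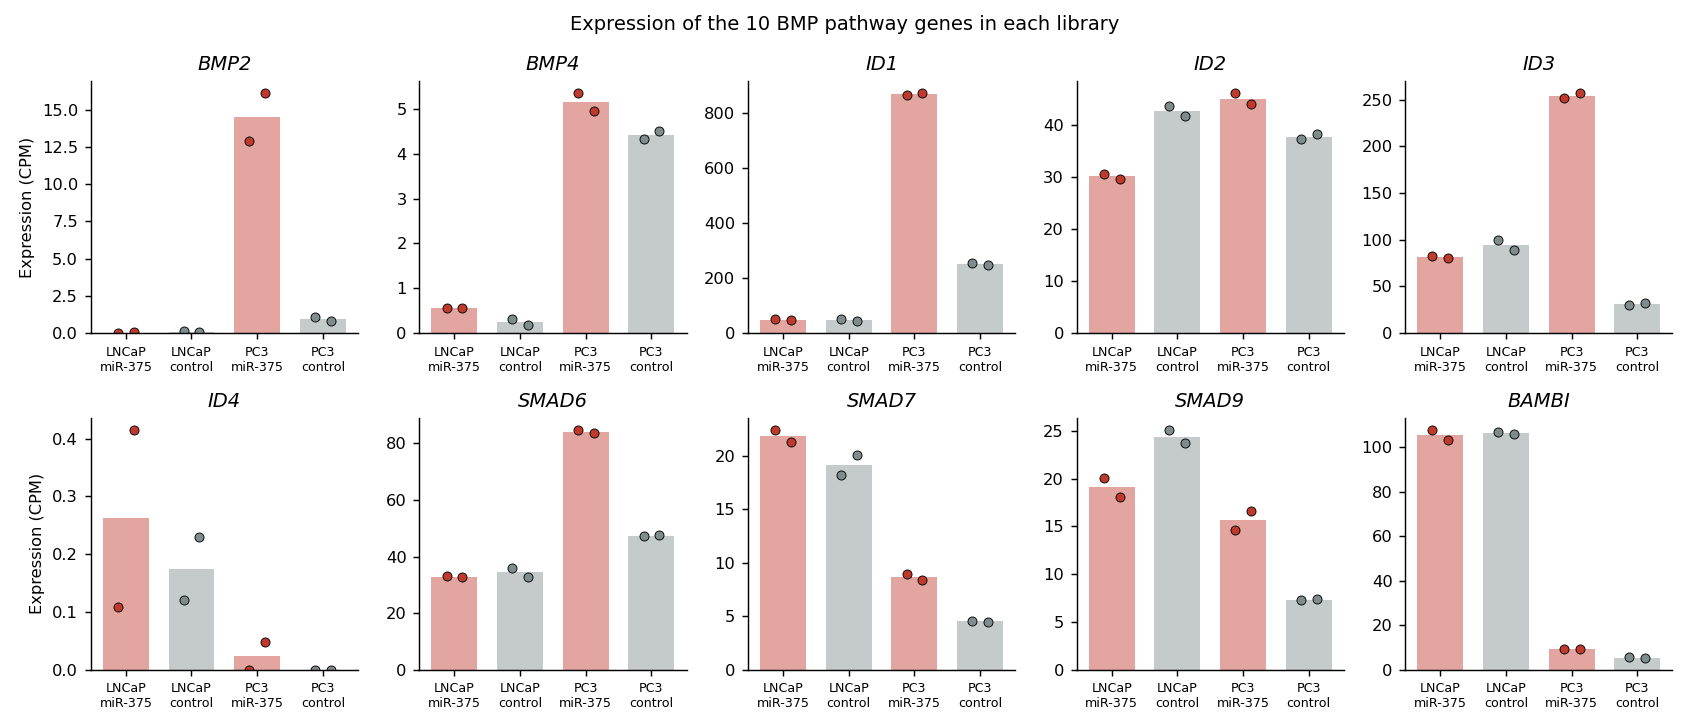
Expression in CPM (linear axes from 0) of the 10 genes in each library, with points for the 2 libraries and bars for their mean in LNCaP with miR-375, LNCaP control, PC3 with miR-375 and PC3 control. ID3 lies at 251 and 257 CPM in PC3 with miR-375, above every other library, while ID4 stays under 1 CPM everywhere.

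BMP2, a ligand known for inducing bone formation, lies on chromosome 20 (chr20:6767664-6780280, plus strand; gene positions are GRCh38 from the GENCODE v29 annotation). In PC3 it had 540 and 679 counts with miR-375 and 42 and 30 counts in the controls, or 12.9 and 16.1 CPM against 1.05 and 0.779 CPM. The 2 groups lay far apart, although the 2 libraries with miR-375 differed more, relative to their mean, than those of ID1 or ID3 did. Its log2 fold change was 3.98 ± 0.25 (SE), with an adjusted p of 3.91e-16 in edgeR's quasi-likelihood test, which ranked it 230 of 21066 by size of rise. In LNCaP it had 0 and 2 counts with miR-375 and 4 and 2 in the controls. At that depth no change in LNCaP was detectable (adjusted p = 0.334), and no fold change is given because both groups were at about the limit of 3 counts that a count of 0 allows.

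BMP4, the other ligand, which acts in prostate development and in many embryonic tissues, lies on chromosome 14 (chr14:53949736-53958761, minus strand). In PC3 it stood at 5.36 and 4.96 CPM with miR-375 and at 4.34 and 4.52 CPM in the controls. The libraries did not overlap, but the log2 fold change of 0.22 ± 0.23 (SE) did not pass the test (adjusted p = 0.484, edgeR). In LNCaP it had 21 and 20 counts with miR-375 and 10 and 6 counts in the controls, or 0.569 and 0.554 CPM against 0.302 and 0.172 CPM. It was the 1 gene of the set called higher in LNCaP, by 1.24 ± 0.47 on the log2 scale (adjusted p = 0.0389, edgeR's quasi-likelihood test). That call rests on few counts and was lost in 6 of 17 alternative settings, among them without LNCaP control 2 (adjusted p = 0.257), without LNCaP miR-375 library 1 (0.104) and without LNCaP miR-375 library 2 (0.0847).

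The ID genes, the direct transcriptional targets of the pathway, differed from one another in size and direction. ID1 (chr20:31605283-31606515, plus strand) stood at 865 and 872 CPM in PC3 with miR-375 and at 256 and 248 CPM in PC3 controls. The 2 libraries of each group lay close together and the groups far apart. The log2 fold change was 1.79 ± 0.04 (SE), with an adjusted p of 1.8e-29 in edgeR's quasi-likelihood test. In LNCaP the same gene stood at 49.7 and 47.2 CPM with miR-375 and at 50.4 and 45.1 CPM in the controls. These values overlapped, and the log2 fold change of 0.02 ± 0.05 (SE) did not pass the test (adjusted p = 0.795). It passed with library sizes from total counts (0.15, adjusted p = 0.0175) and without LNCaP control 1 (0.16, adjusted p = 0.0258).

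ID3 (chr1:23557918-23559794, minus strand) had the largest change of the ID genes. In PC3 it stood at 251 and 257 CPM with miR-375 and at 30.4 and 32.1 CPM in the controls. The log2 fold change was 3.02 ± 0.05 (SE), with an adjusted p of 2.51e-32 in edgeR's quasi-likelihood test. In LNCaP it stood at 82.0 and 80.5 CPM with miR-375 and at 100.1 and 88.9 CPM in the controls, so the change ran the other way and the groups did not overlap. It fell there by 0.22 ± 0.05 on the log2 scale (SE, adjusted p = 0.00067). The LNCaP call was lost in 4 of 17 settings, with total counts (adjusted p = 0.146), upper-quartile scaling (0.0525), without LNCaP control 1 (0.372) and without LNCaP miR-375 library 2 (0.0539).

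ID2 (chr2:8678845-8684453, plus strand) also moved in opposite directions in the 2 lines. In LNCaP it stood at 30.5 and 29.6 CPM with miR-375 and at 43.5 and 41.6 CPM in the controls. It fell by 0.50 ± 0.07 on the log2 scale (SE, adjusted p = 3.28e-07 in edgeR's quasi-likelihood test), the fall with the smallest adjusted p in the set. In PC3 it stood at 46.1 and 43.9 CPM with miR-375 and at 37.3 and 38.1 CPM in the controls, a log2 fold change of 0.25 ± 0.07 (SE, adjusted p = 0.00208). Exons of ID2 share 38 of 2205 bases with the antisense gene ID2-AS1, which had 239 to 378 counts per library. Since the strand setting of the counting is not stated, reads from that stretch cannot be told apart.

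ID4 (chr6:19837386-19840684, plus strand), whose protein acts mainly as a counterpart to the other ID proteins, was barely detected. It had 4 and 15 counts in LNCaP with miR-375 and 4 and 8 counts in LNCaP controls. It had 0 and 2 counts in PC3 with miR-375 and 0 and 0 counts in PC3 controls. A count of 0 allows up to 3 counts, which is 0.0712 to 0.0907 CPM depending on the library. ID4 was not tested in the main fit, and no change in it with miR-375 was detectable at this depth. Without the filter on low counts it was called higher in LNCaP controls than in PC3 controls. It also passed the filter in some runs that left out a library, so the calls between lines in those runs can include it.

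SMAD6 and SMAD7 encode the inhibitory SMADs, which block receptors and compete for the signalling SMADs; SMAD6 acts mainly on BMP signals and SMAD7 on both BMP and TGF-beta signals. SMAD6 (chr15:66702228-66782848, plus strand) stood at 84.8 and 83.6 CPM in PC3 with miR-375 and at 47.2 and 47.5 CPM in PC3 controls. Its log2 fold change was 0.83 ± 0.06 (SE), or 1.78-fold, with an adjusted p of 2.42e-14 in edgeR's quasi-likelihood test. In LNCaP it stood at 33.0 and 32.9 CPM with miR-375 and at 36.0 and 32.8 CPM in the controls, which overlapped. The LNCaP log2 fold change of -0.06 ± 0.07 (SE) did not pass (adjusted p = 0.533), and its sign turned with the scaling.

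SMAD7 (chr18:48919853-48952052, minus strand) had higher levels in LNCaP than in PC3. In PC3 it stood at 8.96 and 8.38 CPM with miR-375 and at 4.59 and 4.46 CPM in the controls. The log2 fold change was 0.94 ± 0.13 (SE), or 1.91-fold, with an adjusted p of 2.63e-07 in edgeR's quasi-likelihood test. In LNCaP it stood at 22.4 and 21.3 CPM with miR-375 and at 18.2 and 20.1 CPM in the controls, without overlap. The LNCaP log2 fold change of 0.19 ± 0.11 (SE) did not pass (adjusted p = 0.205); it passed with total counts (0.31, adjusted p = 0.0244) and with upper-quartile scaling (0.28, adjusted p = 0.0427).

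SMAD9 (chr13:36844831-36920765, minus strand) encodes a receptor-activated SMAD of the BMP branch and is itself reported as a BMP target. In PC3 it stood at 14.7 and 16.6 CPM with miR-375 and at 7.26 and 7.42 CPM in the controls, a log2 fold change of 1.09 ± 0.12 (SE, 2.13-fold, adjusted p = 4.41e-10 in edgeR's quasi-likelihood test). In LNCaP it stood at 20.1 and 18.1 CPM with miR-375 and at 25.1 and 23.7 CPM in the controls. It fell there by 0.35 ± 0.10 on the log2 scale (SE, adjusted p = 0.00712). This call was lost with total counts (adjusted p = 0.0832), without LNCaP control 1 (0.171) and without LNCaP miR-375 library 2 (0.204).

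BAMBI (chr10:28677342-28682939, plus strand) encodes a receptor-like membrane protein that lacks the kinase and so dampens BMP and TGF-beta signals. In PC3 it stood at 9.34 and 9.49 CPM with miR-375 and at 5.74 and 5.24 CPM in the controls. The log2 fold change was 0.78 ± 0.09 (SE), or 1.71-fold, with an adjusted p of 1.14e-08 in edgeR's quasi-likelihood test. In LNCaP it stood at 107.8 and 103.4 CPM with miR-375 and at 106.9 and 106.0 CPM in the controls. The LNCaP values overlapped, and the log2 fold change of -0.01 ± 0.05 (SE, adjusted p = 0.928) turned sign with the scaling.

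**Figure D2:**
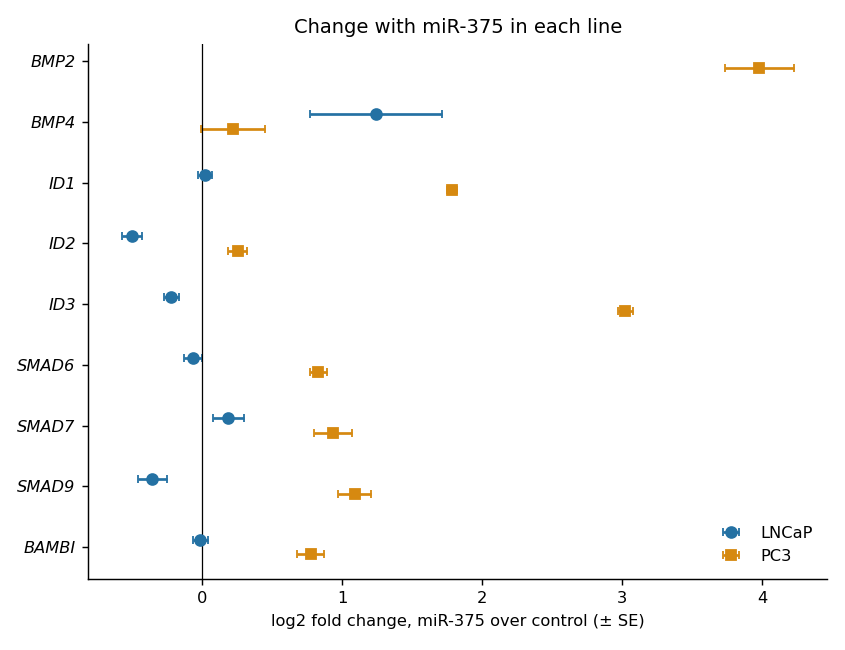
Log2 fold change of miR-375 over control with its SE for the 9 tested genes in LNCaP (circles) and PC3 (squares), all from the 1 model of 8 libraries; BMP2 in LNCaP is left out because its counts were near the limit of detection. The PC3 points of BMP2, ID3 and ID1 lie farthest to the right, at 3.98, 3.02 and 1.79. In LNCaP the called genes ID2, ID3 and SMAD9 lie left of 0, and SMAD6 and BAMBI, without a call, lie just left of 0.

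The difference between the lines was tested directly, as the LNCaP change minus the PC3 change. It was called for 8 of the 9 genes, all of them negative, where 26.5% of all tested genes were called in either direction. ID3 differed by -3.24 ± 0.07 (SE) on the log2 scale, with an adjusted p of 6.1e-28 in edgeR's quasi-likelihood test. ID1 differed by -1.76 ± 0.06 and SMAD9 by -1.44 ± 0.16. SMAD6, BAMBI, ID2 and SMAD7 differed by -0.90 ± 0.09, -0.79 ± 0.11, -0.76 ± 0.10 and -0.75 ± 0.17. Their adjusted p-values in the same test ran from 3.61e-22 for ID1 to 0.000972 for SMAD7. BMP4 was the gene without a call, at 1.02 ± 0.53 (adjusted p = 0.163). BMP2 was called at an adjusted p of 0.00069, but its LNCaP counts were at about the limit of detection, and without LNCaP control 1 the adjusted p was 0.0595. Scaling to total counts moved the median of all genes by 0.12 on the log2 scale in LNCaP, by 0.08 in PC3 and by 0.05 for the difference, so LNCaP changes smaller than this have no settled direction.

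**Figure D3:**
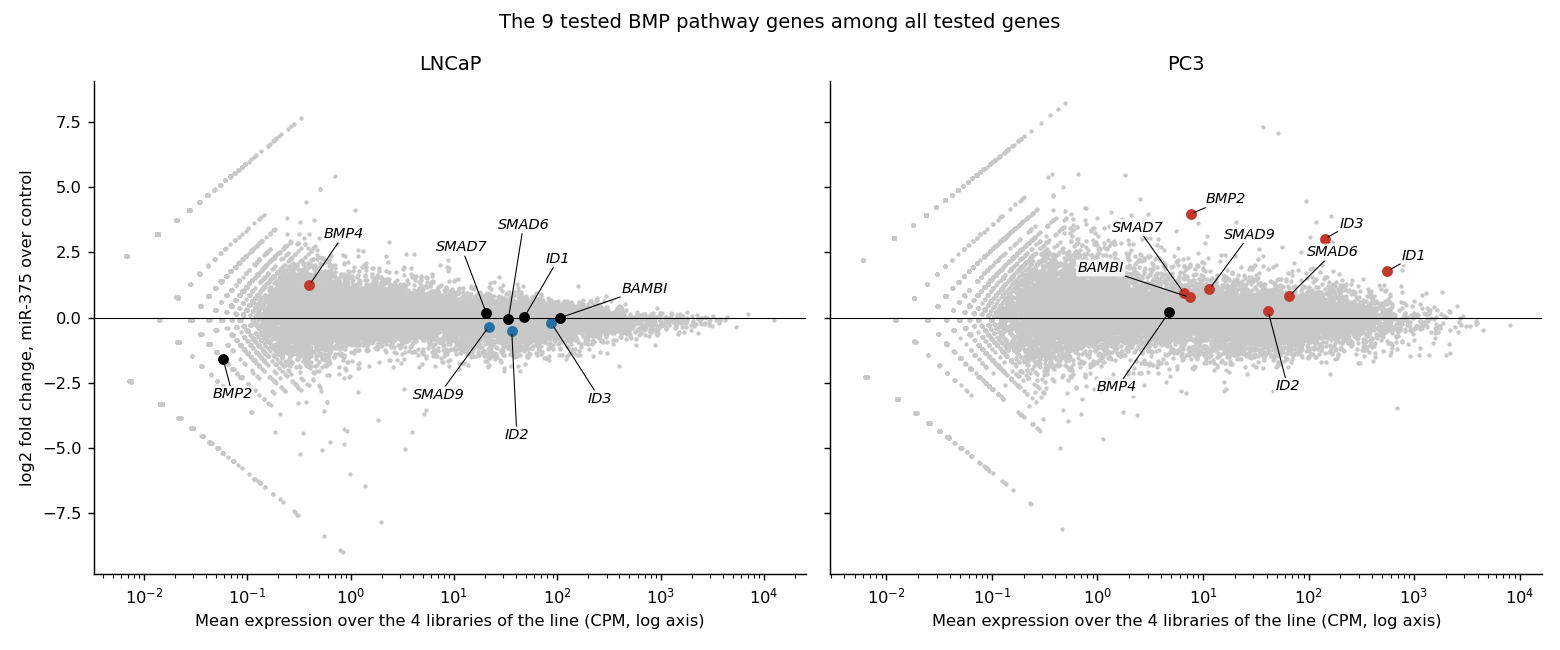
Log2 fold change of miR-375 over control against mean CPM of the line's 4 libraries (log axis) for all tested genes (grey) and the 9 tested genes of the set, coloured red where called higher, blue where called lower and black where not called; genes with 0 counts in a whole line are not drawn. In PC3, BMP2, ID3 and ID1 stand above most genes of like expression, and BMP2 in LNCaP lies among genes near the limit of detection.

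The control libraries show how far the 2 lines differed without added miR-375. All 9 tested genes were called between LNCaP controls and PC3 controls, as were 80.4% of all tested genes, 5 of them higher in LNCaP and 4 lower. BAMBI was 19.4-fold higher in LNCaP controls than in PC3 controls (log2 fold change 4.28 ± 0.08, SE), SMAD7 was 4.23-fold higher, SMAD9 3.32-fold and ID3 3.02-fold. BMP2, with 4 and 2 counts in LNCaP controls against 42 and 30 in PC3 controls, was called lower in LNCaP; a log2 fold change at such counts has no firm size, and it was -3.33 with all libraries, -3.96 without LNCaP control 1 and -2.92 without LNCaP control 2. BMP4 was 18.6-fold lower in LNCaP controls (-4.21 ± 0.35), ID1 5.28-fold lower (-2.40 ± 0.04) and SMAD6 1.38-fold lower (-0.46 ± 0.06). ID2 was called higher by 0.17 ± 0.07 (adjusted p = 0.0212 in edgeR's quasi-likelihood test), a call lost in 7 of 16 settings, among them without either LNCaP control (adjusted p 0.286 and 0.0719), without either LNCaP miR-375 library (0.0675 and 0.079) and without PC3 control 1 (0.0767). Cell line and serum share cannot be told apart in these values. ID3, lower in PC3 controls than in LNCaP controls, was above both LNCaP groups in PC3 with miR-375, whereas BAMBI, SMAD7 and SMAD9 stayed below both LNCaP groups.

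Levels of different genes were compared per length, as CPM per kilobase of merged exons. In PC3 with miR-375 the order was led by ID1 at 704 ± 4.12 (SD, n = 2), followed by ID3 at 141 ± 2.23 and ID2 at 20.4 ± 0.686. In PC3 controls ID1 also led, at 204 ± 4.44, and ID3 at 17.4 ± 0.700 and ID2 at 17.1 ± 0.267 did not differ beyond their spread. Below them in PC3 with miR-375 came SMAD6 at 9.83, then BAMBI at 4.07 and BMP2 at 4.02 ± 0.639, which did not differ beyond their spread, then SMAD9 at 2.73, SMAD7 at 1.72 and BMP4 at 1.67, of which the last pair overlapped. In PC3 controls SMAD6 stood at 5.53 CPM per kilobase, BAMBI at 2.37, BMP4 at 1.44, SMAD9 at 1.28, SMAD7 at 0.90 and BMP2 at 0.254. BMP2 thus stood below BMP4 in PC3 controls and above it in PC3 with miR-375.

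The LNCaP order was different at its head. In LNCaP with miR-375, BAMBI at 45.6 CPM per kilobase and ID3 at 45.2 did not differ beyond their spread, followed by ID1 at 39.3 and ID2 at 13.6. In LNCaP controls ID3 at 52.6 ± 4.41 (SD, n = 2) led, followed by BAMBI at 46.0, ID1 at 38.7 and ID2 at 19.3. SMAD7, SMAD6 and SMAD9 stood at 4.34, 3.84 and 3.33 in LNCaP with miR-375 and at 3.81, 4.02 and 4.26 in LNCaP controls, where neighbours in the order overlapped. Both ligands and ID4 were under 0.2 CPM per kilobase in LNCaP.

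Promoter sequences were searched for short motifs in most of the set, whether or not a gene was higher in PC3. They include those of ID4, which was not tested, and BMP4, which had no call in PC3. RefSeq windows of 300 bases on GRCh38.p14, from 250 bases before to 50 bases after a transcription start, were used for 9 of the 10 genes, all but BMP2, in 13 windows. Searched on both strands were GTCTAGAC, the palindrome that SMAD proteins bind in feedback genes, CAGAC, a core SMAD-binding element, GGCGCC, a GC-rich element of BMP-regulated genes, and TATAAA. The windows of ID1 (chr20:31605039-31605338, plus strand), ID3 (chr1:23559452-23559751, minus strand) and SMAD6 (chr15:66701986-66702285, plus strand) follow, with matches in capitals.
ID1 promoter: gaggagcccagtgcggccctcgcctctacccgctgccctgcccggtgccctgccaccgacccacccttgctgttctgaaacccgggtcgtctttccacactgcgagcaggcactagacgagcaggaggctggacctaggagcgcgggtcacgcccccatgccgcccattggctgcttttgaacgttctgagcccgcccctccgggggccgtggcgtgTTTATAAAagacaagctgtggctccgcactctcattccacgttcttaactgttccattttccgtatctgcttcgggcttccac
ID3 promoter: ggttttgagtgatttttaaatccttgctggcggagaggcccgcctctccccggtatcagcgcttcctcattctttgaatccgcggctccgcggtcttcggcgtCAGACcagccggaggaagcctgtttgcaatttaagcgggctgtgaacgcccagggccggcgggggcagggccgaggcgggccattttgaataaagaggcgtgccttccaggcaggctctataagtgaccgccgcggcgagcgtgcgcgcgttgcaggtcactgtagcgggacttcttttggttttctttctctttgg
SMAD6 promoter: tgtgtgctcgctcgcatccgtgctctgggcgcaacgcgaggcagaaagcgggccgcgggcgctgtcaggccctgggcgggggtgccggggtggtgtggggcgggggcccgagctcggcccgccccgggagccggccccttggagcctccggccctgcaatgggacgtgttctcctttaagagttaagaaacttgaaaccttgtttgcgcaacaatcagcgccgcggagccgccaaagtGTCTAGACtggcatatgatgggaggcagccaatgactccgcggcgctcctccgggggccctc

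The motifs differed among the genes that were higher in PC3. GTCTAGAC was found in 1 of the 13 windows, that of SMAD6, starting 12 bases before the transcription start, and in 0.202% of the 35116 RefSeq windows searched. The capitals of ID1 are 2 overlapping TATAAA matches, one on each strand, the first starting 33 bases before the start; TATAAA was also found in the windows of ID4 and in 1 window of SMAD7, and in 11.5% of all windows. CAGAC, in capitals in the ID3 window 147 bases before the start, was found in 9 of the 13 windows and in 45.3% of all windows. Those 9 include every window of BMP4 and that of ID4, genes without a call in PC3. GGCGCC was found in the window of BAMBI and in 1 window of BMP4, and in 19.2% of all windows. A match describes these letters only, and elements farther from the start sites lie outside the windows.

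Whether miR-375 could pair with these messages was described from its sequence and the 3' untranslated regions. The mature miR-375-3p (RefSeq, GRCh38.p14, chr2:219001648-219001669, minus strand) is shown with its seed, bases 2 to 8, in capitals, beside the 2 places in the SMAD6 3' untranslated region (chromosome 15) that hold GAACAAA, the complement of seed bases 2 to 7 followed by an A, also in capitals.
hsa-miR-375-3p: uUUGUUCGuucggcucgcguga
SMAD6 site at base 578: ggataaagacaGAACAAAttgaaaaggga
SMAD6 site at base 856: aatggcctgggGAACAAAgactgaaatgg

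CGAACAA, the complement of seed bases 2 to 8, was found in none of the 10 genes, and in 0.971% of 19146 genes searched. GAACAAA was found 2 times in SMAD6, counted from the first base of the untranslated region, and in none of the other 9 genes. Among 1124 genes with a region of like length (within 10%), 11.6% held it, as did 13.3% of all genes searched. The search used 1 untranslated region per gene. SMAD6, the member with such letters, was higher with miR-375 in PC3 and had no call in LNCaP. ID2, ID3 and SMAD9, the genes called lower in LNCaP in the main fit, held neither string. Of these calls, only that of ID2 was kept with total counts. Direct action of miR-375 on these messages was not tested.

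Of 102 other genes of the pathway, 81 were tested. In PC3 with miR-375, 34 were called higher and 19 lower, and in LNCaP 13 were called higher and 21 lower, against the shares of all genes given above. The LNCaP split was 17 higher and 14 lower with total counts and 15 higher and 16 lower with upper-quartile scaling. The median log2 fold change of the 81 genes was 0.18 in PC3 and 0 in LNCaP. Calls and adjusted p-values of these genes are from the same edgeR fit.

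Other BMP and GDF ligands rose beside BMP2 in PC3, where 6 of 8 tested were higher and none lower. BMP3, a family member reported to oppose osteogenic BMPs, stood at 10.6 ± 0.616 CPM with miR-375 and 2.67 ± 0.106 CPM in the controls (SD, n = 2 each), a log2 fold change of 1.98 ± 0.22 (SE, edgeR adjusted p = 1.61e-09). It had 0 counts in all LNCaP libraries. GDF11, a ligand that signals mainly through the activin branch, stood at 99.2 ± 2.53 CPM with miR-375 and 72.8 ± 0.783 CPM in controls (SD, n = 2 each), a log2 fold change of 0.45. BMP8A and BMP8B were higher by 2.85 and 0.48, and since they are near-identical copies their reads may be split between them. The BMP8B call was lost with DESeq2 (adjusted p = 0.0561), without PC3 control 2 (0.141) and without either PC3 miR-375 library (0.0684 and 0.0629). BMP6 was higher in PC3 by 0.44 ± 0.13, and its difference between the lines was called (-0.95 ± 0.19). In LNCaP 1 of 8 ligands was called, BMP6, which fell to 12.6 and 11.3 CPM with miR-375, against 17.0 and 17.2 CPM in the controls (-0.51 ± 0.13, adjusted p = 0.00182). Without LNCaP miR-375 library 2 its adjusted p was 0.0716.

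Among the 11 tested receptors and co-receptors, 5 were higher and 1 lower in PC3. ACVRL1, a type I receptor best known in endothelium, was higher by 2.11 ± 0.43 on the log2 scale (2.65 CPM with miR-375 against 0.610 CPM). NEO1, which binds BMP co-receptors of the RGM family, was higher by 1.32 ± 0.12 and the type II receptor ACVR2B by 0.98 ± 0.11. The co-receptor ENG and the type II receptor BMPR2 were higher by 0.31 and 0.22, and the ENG call was lost without PC3 control 2 (adjusted p = 0.0872) and without either PC3 miR-375 library (0.0583 and 0.051). BMPR1B, a type I receptor for BMPs, was lower, at 18.7 ± 0.855 CPM with miR-375 and 33.5 ± 0.654 CPM in controls (-0.85 ± 0.10). The other 5 in PC3, which were BMPR1A, ACVR1, ACVR2A, RGMA and RGMB, had no call.

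In LNCaP 1 receptor was higher and 1 lower. BMPR2 stood at 51.1 and 54.7 CPM with miR-375 and at 81.1 and 85.2 CPM in LNCaP controls (-0.65 ± 0.05, adjusted p = 9.76e-13), the opposite direction to PC3. BMPR1A, a type I BMP receptor, was higher by 0.28 ± 0.08. The other 9 receptors and co-receptors in LNCaP had no call, at log2 fold changes from -0.14 for RGMB to 0.91 for RGMA.

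Of the 5 signal-carrying SMADs, none was called higher and 2 were lower in PC3. SMAD5, which carries BMP signals, stood at 65.5 ± 1.73 CPM with miR-375 and 84.1 ± 1.98 CPM in PC3 controls (-0.36 ± 0.05). SMAD3, of the TGF-beta branch, was lower by -0.24 ± 0.04. SMAD1 and the shared SMAD4 had log2 fold changes of -0.19 and -0.15 in PC3 with adjusted p of 0.0587 and 0.0537, and SMAD2 had 0.09. In LNCaP SMAD5, SMAD2 and SMAD4 were lower by -0.33, -0.24 and -0.22, and SMAD3 was higher by 0.55. The LNCaP calls of SMAD4 (adjusted p = 0.212) and SMAD2 (0.0628) were lost with total counts, and that of SMAD4 also without LNCaP control 2 (0.282), miR-375 library 1 (0.0574) or miR-375 library 2 (0.129).

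**Figure D4:**
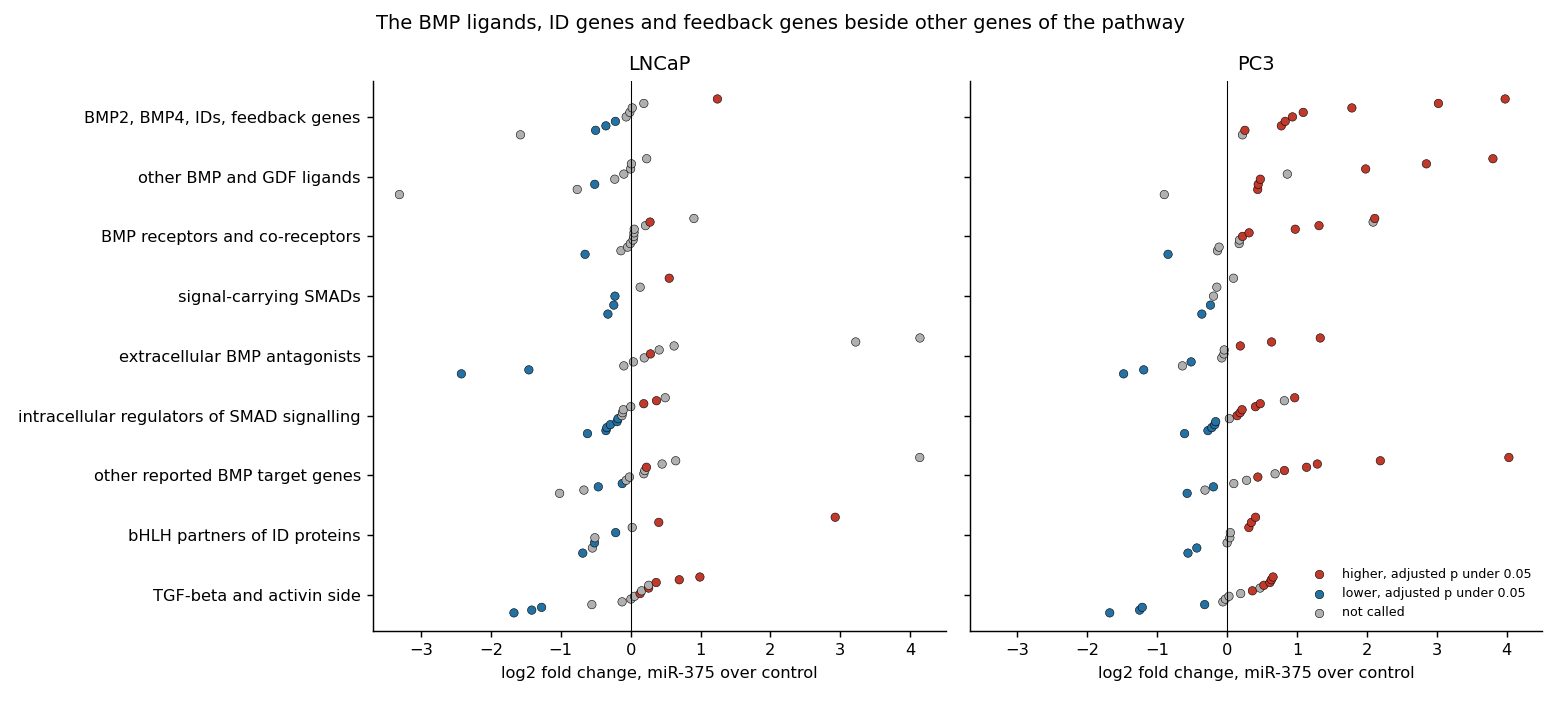
Log2 fold change of miR-375 over control in LNCaP and PC3 for the 9 tested genes of the set (top row) and 81 other tested genes of the pathway in 8 lists, 1 point per gene, coloured by call. In PC3 the top row and the row of other ligands hold no blue points, while genes at large changes shown in grey have low counts.

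Extracellular antagonists, which bind the ligands and keep them from receptors, were divided in PC3, with 3 of 10 tested higher and 3 lower. FST, follistatin, which binds activins and some BMPs, stood at 480 ± 4.77 CPM with miR-375 and 1340.4 ± 0.538 CPM in PC3 controls (-1.48 ± 0.04). NOG, noggin, a high-affinity antagonist of BMP2 and BMP4, stood at 18.1 and 16.2 CPM with miR-375 and at 40.9 and 37.5 CPM in PC3 controls (-1.19 ± 0.11, adjusted p = 4.4e-11). These 2 antagonists were thus lower in the libraries in which BMP2 was higher. NBL1 and SOSTDC1 were higher by 0.64 ± 0.08 and 1.33 ± 0.43, and the SOSTDC1 call was lost without PC3 control 2 (adjusted p = 0.0832) and without either PC3 miR-375 library (0.0559 and 0.0593). In LNCaP CRIM1, a membrane protein that holds BMPs at the cell surface, fell to 2.85 ± 0.422 CPM with miR-375, against 7.83 ± 0.380 CPM in controls (-1.46 ± 0.12), and TWSG1 was higher by 0.28 ± 0.05. Both were called in the same direction in PC3. There CRIM1 fell to 137 CPM with miR-375, against 196 CPM in controls (-0.51 ± 0.05), and TWSG1 was higher by 0.19 ± 0.05. The difference between the lines was called for CRIM1 (-0.94 ± 0.13) and not for TWSG1.

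Of the other genes reported as BMP targets in other cell types, 6 of 12 tested were higher and 2 lower in PC3. ATOH8, a helix-loop-helix factor induced by BMP signals in endothelium and liver, stood at 3.14 and 1.97 CPM with miR-375 and at 0.0499 and 0.260 CPM in PC3 controls (4.03 ± 0.54, adjusted p = 7.51e-08). The controls held 2 and 10 counts, and the log2 fold change of ATOH8 was 3.29 without PC3 control 1 and 5.58 without PC3 control 2. GATA2, a transcription factor that also works with the androgen receptor, stood at 71.1 and 66.1 CPM with miR-375 and at 29.3 and 26.7 CPM in PC3 controls (1.29 ± 0.05). The homeobox genes DLX3 and DLX2 were higher by 2.19 ± 0.41 and 1.14 ± 0.20, and DLX3, with 40 and 16 counts in the controls, by 2.96 without PC3 control 1. RUNX2 was also higher in PC3, by 0.82 ± 0.09. The 2 targets lower in PC3 were HEY1, at 110 CPM with miR-375 against 163 CPM in controls (-0.57 ± 0.05), and KLF10 (-0.20 ± 0.05). In LNCaP 1 target was higher and 2 were lower. KLF10 was higher by 0.23 ± 0.05, RUNX2 lower by -0.46 ± 0.13 and GATA2 lower by -0.12 ± 0.04. The GATA2 value in LNCaP is as small as the shift between scalings and lost its call without any 1 of the 4 LNCaP libraries (adjusted p from 0.16 to 0.49). RUNX2 lost its call without LNCaP control 1 (0.0696), control 2 (0.0509) or miR-375 library 2 (0.217).

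The basic helix-loop-helix factors listed here as possible partners of ID proteins had changes under 0.6 on the log2 scale in PC3. Of 8 tested, 3 were higher and 2 lower. Binding of these factors to ID proteins was not tested. Of the E proteins, the main partners, TCF12 was lower in both lines, at 55.6 ± 3.98 CPM with miR-375 and 82.0 ± 4.22 CPM in controls in PC3 (-0.56 ± 0.06) and at 30.4 ± 0.441 CPM and 43.5 ± 0.0506 CPM in LNCaP (-0.52 ± 0.07). The E proteins were divided in PC3, where TCF4 was lower by -0.43 ± 0.10 and TCF3 was higher by 0.31 ± 0.05. BHLHE41 and TWIST1 were higher there by 0.41 ± 0.04 and 0.35 ± 0.10. The difference between the lines was called for TCF3 (-0.53 ± 0.07). In LNCaP TCF3 was lower by -0.21 ± 0.05, BHLHE40 was higher by 0.40 ± 0.05 and BHLHE41 was lower by -0.69 ± 0.23. The LNCaP calls of BHLHE41 (adjusted p = 0.0601) and TCF3 (0.168) were lost with total counts. That of BHLHE41 was also lost without LNCaP control 2 (0.352) or miR-375 library 2 (0.419), and that of TCF3 without LNCaP control 1 (0.109). The list stood at 2 higher and 3 lower of 8 in LNCaP.

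The intracellular regulators of SMAD signalling were divided, at 6 higher and 5 lower of 13 in PC3 and 2 higher and 6 lower in LNCaP. SKIL, a repressor of SMAD complexes that TGF-beta signals induce, stood at 80.1 ± 0.0108 CPM with miR-375 and 41.0 ± 0.463 CPM in PC3 controls (0.97 ± 0.07). SMURF2, a ubiquitin ligase for SMADs and receptors, was lower in PC3 (-0.61 ± 0.05) and in LNCaP (-0.34 ± 0.07), and CTDSP2, a SMAD phosphatase, was higher in both (0.41 ± 0.04 in PC3 and 0.37 ± 0.04 in LNCaP). TGIF2 was higher in PC3 by 0.47 ± 0.09. In LNCaP SKI, the relative of SKIL, was lower by -0.62 ± 0.05 and CTDSP1 by -0.35 ± 0.05. SKI was also called lower in PC3, by -0.16 ± 0.04.

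On the neighbouring TGF-beta and activin side, 5 of 14 tested genes were higher and 4 lower in PC3, and 5 were higher and 3 lower in LNCaP. The activin subunit genes INHBA and INHBB were lower in PC3 by -1.21 ± 0.05 and -1.25 ± 0.04, while INHBB was higher in LNCaP by 0.70 ± 0.10. PMEPA1, a TGF-beta target that limits SMAD signals, was higher in PC3 by 0.66 ± 0.06 and in LNCaP by 0.14 ± 0.04. In LNCaP TGFB1 and LTBP1 were higher by 0.99 ± 0.15 and 0.37 ± 0.08, and LTBP1 had an adjusted p of 0.0522 with limma-voom. TGFB1 was also higher in PC3, at 257 CPM with miR-375 against 168 CPM in controls (0.61 ± 0.04). Its levels in LNCaP were far lower, at 3.42 CPM and 1.73 CPM. The difference between the lines in TGFB1 was not called (edgeR adjusted p = 0.0841).

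Genes whose pattern was most like that of ID1 were sought among 11811 genes, by Pearson's r over the 8 libraries of log2 CPM centred on each line's mean. The 5 with the highest r were EPHX1 (0.998), SDF4 (0.998), TNFRSF21 (0.997), PCYOX1L (0.997) and PRDX4 (0.997), each higher with miR-375 in PC3. Within the set, r to ID1 was 0.995 for ID3, 0.994 for SMAD6, 0.993 for BAMBI, 0.965 for SMAD7, 0.948 for BMP2 and 0.939 for SMAD9. ID2 at 0.441 and BMP4 at 0.211 were least like it. The points share lines and libraries, and much of each r comes from the 1 contrast between PC3 with miR-375 and PC3 controls, so these values are a description.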

How the data were processed

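Poly(A) RNA-seq of 8 libraries was used. The authors deposited 1 table of raw whole-number counts per gene. The submitters' processing notes name hg38, STAR 2.7.1a, fastp, featureCounts and DESeq2 without roles, and neither annotation nor strandedness of counting is stated. The libraries were dUTP-marked and read as 150-base pairs, per the labels. Of 60625 gene lines, 3 broken ones were left out. Of counts from 1 to 20, 68.1% to 70.3% per library were even, so mates may have been counted singly; this was not settled.

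Counts were scaled by TMM (factors 0.957 to 1.06), filtered by filterByExpr (21066 genes kept) and fitted in 1 model of 4 groups (4 residual degrees of freedom) with edgeR 4.0.16 in R 4.3.3. The fit was also run on counts simulated with the spread of these libraries. Changes were set there only in genes of at least 5 CPM, so recovery of changes at lower counts was not checked. SE is the log2 fold change divided by the square root of F. CPM per kilobase used GENCODE v29 exons, which may differ from the authors' annotation. Limits from a count of 0 (3 counts) cover counting error only.

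Genes and lists were chosen with earlier results of these data known. Named were all 10 genes, all tested receptors and SMADs, up to 4 genes called per other list and line with at least 1 CPM by size of change, and the 5 genes of at least 5 CPM most like ID1. One gene that this rule names is not reported here. Alternatives were other scalings, other filters, DESeq2 1.42.0, limma-voom (limma 3.58.1), 1 line alone, a replicate block, leaving out each library, and, added after seeing the data, halved counts. Fewer cells and less RNA per cell cannot be told apart in bulk libraries.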

Additional observations from a re-analysis of the deposited data

Results flagged for a closer look

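For 8 genes the miR-375 change differed between the lines by the test of that difference, LNCaP minus PC3, on the log2 scale. The differences were -3.24 for ID3, -1.76 for ID1, -1.44 for SMAD9, -0.90 for SMAD6, -0.79 for BAMBI, -0.76 for ID2 and -0.75 for SMAD7. BMP2 differed by -5.56, a value that depends on 0 to 4 counts per library in LNCaP and ran from -8.74 to -4.55 without single libraries.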

How the results depend on the processing

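The count of the 9 tested genes called in PC3 was 8 under every alternative run. In LNCaP it was 4 (BMP4 higher; ID2, ID3 and SMAD9 lower). It was also 4 with total counts, but of partly other genes (BMP4, ID1 and SMAD7 higher, ID2 lower), and with upper-quartile scaling (BMP4 and SMAD7 higher, ID2 and SMAD9 lower). It was 3 under limma-voom, halved counts and 1 line alone, each without BMP4, and from 1 to 4 when a library was left out; the 1 came without LNCaP miR-375 library 2. With the replicate block the counts were 4 in LNCaP, 8 in PC3, 8 for the difference and 9 between lines, and pathway calls were 33 in LNCaP and 53 in PC3; same-numbered libraries correlated by 0.067 in LNCaP and 0.0401 in PC3, so the numbers were not taken as pairs. Leaving out libraries gave 7 to 8 calls for the difference, 8 to 10 between lines, and 28 to 35 (LNCaP) and 46 to 58 (PC3) pathway calls.

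Signs turned in LNCaP for 4 small changes. SMAD6 was 0.059 with total counts, 0.029 with upper-quartile scaling, 0.0033 without a filter and from -0.078 to 0.057 without single libraries. BAMBI was 0.11, 0.081 and 0.055 in the same 3 settings, 0.028 with DESeq2, 0.051 with at least 1 CPM, 0.042 with halved counts and from -0.0062 to 0.065 without single libraries. ID1 ranged from -0.0063 to 0.16 without single libraries, and GATA2 was 0.0019 with total counts; the cause was not tested.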
